A study of Mus musculus with 19 samples.

Results

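The genes described are 5 of neurotrophin signalling, namely the ligands Bdnf and Ntf3 and the receptors Ntrk2, Ntrk3 and Ngfr. They were taken by name from the expression files, and 5 of the 24058 genes listed there carry these names. The neurons came from mouse hippocampus at embryonic day 17 and had been cultured for 10 days. They were untreated, treated with tetrodotoxin (TTX, which blocks voltage-gated sodium channels and so silences firing; the labels used here do not give its duration) or treated for 3 h with bicuculline and 4-aminopyridine (Bic/4AP, which block GABA-A receptors and potassium channels and so raise firing). The labels give no genotype or transgene for any group. RNA-seq covered 3 libraries of each of the 3 treatments from ICR mice. The histone marks H3K27ac (untreated and Bic/4AP, 2 peak lists each) and H3K4me1 (untreated, 2 lists) were also measured in ICR neurons, and CpG methylation in 1 library of each treatment from C57BL/6 mice. The labels do not say that libraries of a treatment came from separate cultures or animals, so a p-value speaks only of how far these libraries scatter, and that scatter may be technical. The question put to these genes is how their transcripts and their loci stand in silenced, untreated and excited neurons.

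Neurotrophins are secreted proteins that are made as precursors and cut to mature ligands. Mature BDNF binds the receptor tyrosine kinase TrkB, encoded by Ntrk2, and neurotrophin-3, encoded by Ntf3, binds mainly TrkC, encoded by Ntrk3. The precursor forms bind p75NTR, encoded by Ngfr, together with receptors of the sortilin family. In hippocampal neurons Bdnf is a textbook activity-regulated gene with several alternative promoters, and Ntrk2 produces both full-length TrkB and truncated forms without the kinase. One RPKM value per gene cannot tell apart the Bdnf promoters or the Ntrk2 isoforms. The lengths behind the RPKM values, recovered from their steps, were 6714 bases for Bdnf and 14037 bases for Ntrk2.

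The genes lie on 5 chromosomes of the mm10 (GRCm38) build. RefSeq (GRCm38.p6) places Bdnf at chr2:109674700-109727043 on the plus strand, Ntf3 at chr6:126101412-126166772 on the minus strand and Ntrk2 at chr13:58806472-59133970 on the plus strand. Ntrk3 spans chr7:78179986-78581034, and Ngfr spans chr11:95568818-95587698 on the minus strand. The RefSeq promoter table holds 7 starts of Bdnf, 2 of Ntf3 and 1 each of Ntrk2 and Ngfr. Ntrk3 is not among its entries, so values are given at both ends of that gene. The promoters of 4 starts are printed because the loci differ there in acetylation and methylation: the first Bdnf start, the third Bdnf start (known as promoter IV, the best studied activity-responsive promoter of the gene), the seventh Bdnf start and the Ngfr start. Each line holds the 250 bases before the start, 5′ to 3′ on the gene's strand. Capitals mark the CpG dinucleotides and, in the third Bdnf start, also a core of the cyclic AMP response element.
Bdnf start 1, chr2:109674450-109674699: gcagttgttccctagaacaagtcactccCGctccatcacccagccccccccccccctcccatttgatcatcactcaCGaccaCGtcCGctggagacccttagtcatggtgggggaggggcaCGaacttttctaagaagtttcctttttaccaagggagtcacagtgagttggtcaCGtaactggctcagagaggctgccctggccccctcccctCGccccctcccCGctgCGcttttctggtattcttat
Bdnf start 3, chr2:109692186-109692435: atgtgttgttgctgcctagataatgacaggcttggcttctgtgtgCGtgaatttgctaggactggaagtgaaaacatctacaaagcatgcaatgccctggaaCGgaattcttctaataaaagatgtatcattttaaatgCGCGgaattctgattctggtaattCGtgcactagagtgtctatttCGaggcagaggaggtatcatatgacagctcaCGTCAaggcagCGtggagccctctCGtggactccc
Bdnf start 7, chr2:109722671-109722920: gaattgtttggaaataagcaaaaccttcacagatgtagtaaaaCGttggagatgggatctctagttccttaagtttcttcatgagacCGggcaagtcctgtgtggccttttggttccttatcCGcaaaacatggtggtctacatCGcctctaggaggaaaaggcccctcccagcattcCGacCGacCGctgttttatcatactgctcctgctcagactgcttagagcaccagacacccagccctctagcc
Ngfr start, chr11:95587699-95587948: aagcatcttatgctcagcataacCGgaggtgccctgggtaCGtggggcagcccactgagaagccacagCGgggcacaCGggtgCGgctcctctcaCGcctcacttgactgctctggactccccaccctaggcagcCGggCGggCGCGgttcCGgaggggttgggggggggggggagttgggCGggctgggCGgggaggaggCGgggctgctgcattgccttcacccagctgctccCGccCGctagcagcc

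A set of 5 motifs was searched on both strands of these 250 bases before all 11 starts: the full cyclic AMP response element TGACGTCA, its core TGACG (which every full element contains), the AP-1 motif TGANTCA, the E-box CACGTG and the Egr motif GCGNGGGCG. The core occurred 35 bases before the third Bdnf start, where the strand printed reads CGTCA. At least 1 core was found in 17.8% of 32851 RefSeq promoters of the same length. An AP-1 match lay 152 bases before the second Bdnf start (6.75% of promoters hold one), and an E-box lay 231 bases before the outer Ntf3 start (6.02% of promoters). The full element (1.55% of promoters) and the Egr motif (4.70%) had no match in any of the 11 windows. A match describes letters, not a bound site.

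Some properties of the libraries stand beside every comparison. The expression values gave back 9.68 to 12.6 M reads for the TTX libraries, 5.63 to 9.97 M for the untreated and 4.34 to 4.59 M for the Bic/4AP libraries. Bic/4AP thus overlaps neither TTX nor untreated in depth, while TTX and untreated overlap. No fit at like depth is given for Bic/4AP. The highest RPKM of any gene was 123 to 146 with TTX, 305 to 459 untreated and 254 to 287 with Bic/4AP. A list of 7 choroid plexus markers summed to 314 to 468 RPKM untreated against 6.94 to 10.9 with TTX and 23.5 to 28.8 with Bic/4AP, and all 7 were lower in both treated groups. A list of 11 neuron markers, all above 1 RPKM in every group mean and led by Stmn2, Snap25 and Map2 untreated, summed to 730 to 816 RPKM with TTX, 800 to 958 untreated and 1255 to 1270 with Bic/4AP. Against untreated, 10 of these neuron markers were called higher and 1 lower with Bic/4AP, and 1 higher and 6 lower with TTX. Rbfox3 had a mean of 28.1 RPKM untreated and 18.2 with Bic/4AP, and Tubb3 of 64.2 untreated and 85.6 with TTX. The part of these library properties in the results below was not tested. The median gene differed by -0.12 on the log2 scale between Bic/4AP and untreated, by 0.13 between TTX and untreated and by -0.33 between Bic/4AP and TTX, so changes are also given relative to that median. After quantile normalization these medians were 0.06, 0.05 and -0.03. In Bic/4AP against untreated 4376 genes were called higher and 6297 lower as deposited, against 5741 and 4568 after quantile normalization. In Bic/4AP against TTX the split was 3508 and 7861 as deposited and 4986 and 5351 after quantile normalization, and in TTX against untreated 6008 and 3483 against 5521 and 4724.

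All 5 genes were above 1 RPKM in all 9 libraries and were tested with 14801 genes in all (limma on log2(RPKM + 1), Benjamini-Hochberg over all genes, threshold 0.05). With Bic/4AP against untreated, 2 of the 5 were higher (Bdnf and Ntrk2), 1 was lower (Ntrk3), and Ntf3 and Ngfr did not pass. Of all genes tested, 72.1% were called in this comparison, 29.6% higher and 42.5% lower. With TTX against untreated, Bdnf, Ntf3 and Ngfr were higher and Ntrk2 and Ntrk3 lower, against 64.1% of all genes called (40.6% higher, 23.5% lower). With Bic/4AP against TTX, Bdnf and Ntrk2 were higher and Ntf3, Ntrk3 and Ngfr lower, against 76.8% of all genes called (23.7% higher, 53.1% lower). Groups did not overlap for 3, 5 and 5 of the 5 genes in these comparisons, beside 71.3%, 69.6% and 81.5% of all genes. With 5 genes the counts are too small to set against these shares and are no result about these genes, so the size of each change is given per gene. The comparisons share libraries and are not independent of each other. In bulk samples, fewer cells of a type and less RNA per cell cannot be told apart.

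**Figure D1:**
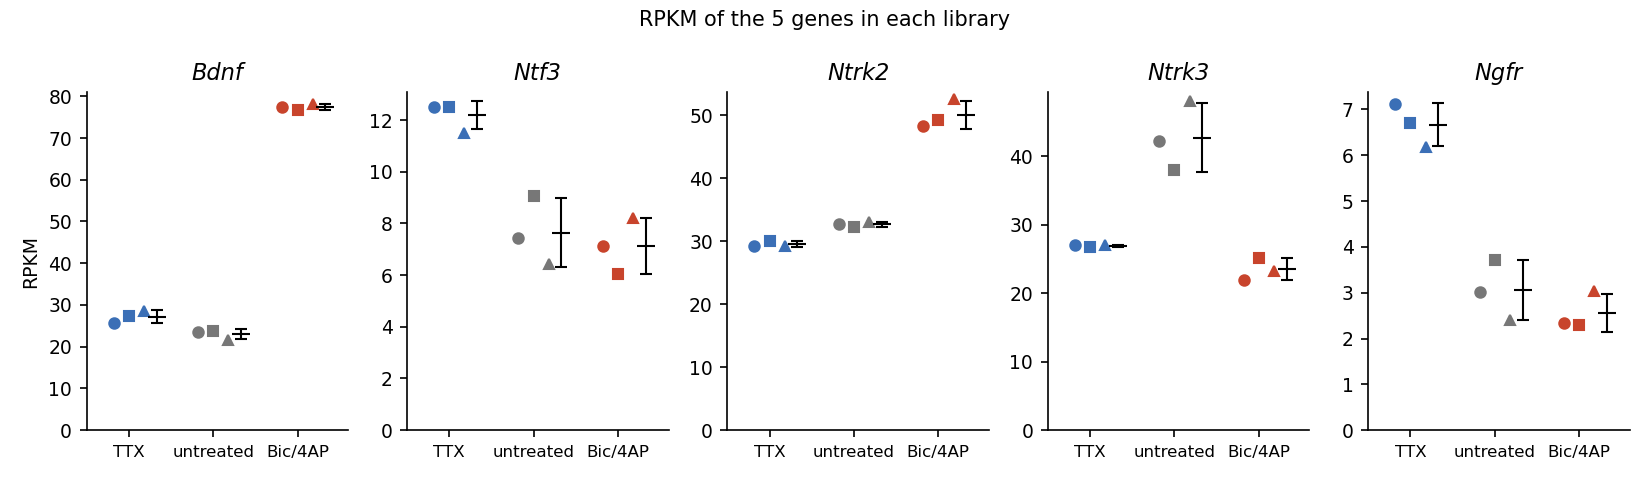
RPKM (y axis, linear from 0) of Bdnf, Ntf3, Ntrk2, Ntrk3 and Ngfr in each of the 3 TTX, 3 untreated and 3 Bic/4AP libraries (circle, square and triangle are libraries 1, 2 and 3; the bar beside them is the mean with the SD). Bdnf and Ntrk2 are highest with Bic/4AP, Ntrk3 is highest untreated, and Ntf3 and Ngfr are highest with TTX.

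Bdnf encodes brain-derived neurotrophic factor, the main ligand of TrkB. Its RPKM was 77.4, 76.7 and 78.2 in the Bic/4AP libraries, 23.5, 23.7 and 21.6 in the untreated libraries and 25.6, 27.4 and 28.6 in the TTX libraries. The 3 groups did not overlap, and the Bic/4AP libraries stood far above the rest. The mean with Bic/4AP was 77.4 ± 0.726 (SD, n = 3), 3.37 times the untreated mean of 23.0 ± 1.15 (n = 3). The log2 change was 1.71 ± 0.06 (SE; 1.84 relative to the median gene; limma adjusted p = 1.56e-09), and 0.818% of the genes tested rose more. It remained 1.37 after quantile and 1.54 after cyclic loess normalization. With Bic/4AP, Bdnf stood above 97.7% of all 24058 genes listed, tested or not, against 81.4% untreated. Between 834 and 1589 reads of Bdnf lay behind each untreated value and between 2277 and 2364 behind each Bic/4AP value. Against TTX the log2 change with Bic/4AP was 1.48 (1.81 relative to the median gene; limma adjusted p = 5.07e-09).

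Silencing did not lower the Bdnf transcript in these libraries. The TTX mean was 27.2 ± 1.5 RPKM (n = 3), a log2 difference of 0.24 from untreated (limma adjusted p = 0.00299). This is 0.11 above the median gene, and 42.0% of the genes tested had a larger rise. The call was lost after quantile normalization (0.06, adjusted p = 0.364) and kept after cyclic loess (0.13, adjusted p = 0.0147). Against the untreated library of like depth alone, the second, it was 0.19 (adjusted p = 0.0449). In that fit the untreated group is 1 library, assumed to vary like the TTX and Bic/4AP libraries, whose spread alone stands behind its p-values here and below. The second untreated library also had the lowest choroid plexus markers of its group (Ttr 131 RPKM against 197 and 198). That fit therefore changes cell mixture together with depth.

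Ntf3 encodes neurotrophin-3. It was listed at 12.5, 12.5 and 11.5 RPKM with TTX, 7.45, 9.07 and 6.41 untreated and 7.14, 6.05 and 8.19 with Bic/4AP. The TTX libraries lay above all others, while the untreated and Bic/4AP libraries overlapped. The mean was 12.2 ± 0.549 RPKM with TTX (n = 3) against 7.64 ± 1.34 untreated (n = 3), a log2 change of 0.62 (limma adjusted p = 0.00169). The change was 0.46 after quantile normalization (adjusted p = 0.00459), 0.29 after cyclic loess (adjusted p = 0.0528) and 0.39 against the second untreated library alone (adjusted p = 0.0796, with the spread of the other groups), so it did not pass under the last 2. With Bic/4AP against untreated the log2 difference was -0.09 (adjusted p = 0.579), but 0.50 after quantile normalization (adjusted p = 0.00284) and 0.42 after cyclic loess (adjusted p = 0.00877), so its direction rests on the scaling. Against TTX, Ntf3 was lower with Bic/4AP as deposited, at -0.71 on the log2 scale (adjusted p = 0.000436), while quantile and cyclic loess normalization gave 0.04 and 0.13, neither of them called.

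The balance of the 2 ligands moved with treatment. Within a library Bdnf stood at 2.05, 2.19 and 2.48 times Ntf3 with TTX, 3.15, 2.62 and 3.37 times untreated and 10.8, 12.7 and 9.55 times with Bic/4AP. The 3 groups did not overlap, and each pair of groups gave p = 0.1 in a two-sided exact permutation test, the smallest that 3 against 3 allows. The gap rests in part on the scaling: for Bic/4AP against untreated, the log2 ratio rose by 1.85 as deposited, while after quantile normalization Bdnf changed by 1.37 and Ntf3 by 0.50.

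Ntrk2 encodes TrkB, the receptor of BDNF. Its RPKM was 48.2, 49.2 and 52.5 with Bic/4AP, 32.8, 32.2 and 33.0 untreated and 29.2, 30.0 and 29.2 with TTX. Every Bic/4AP library was above every untreated one, and these were above every TTX library. The mean rose from 32.7 ± 0.408 untreated (n = 3) to 50 ± 2.27 with Bic/4AP (n = 3), or 1.53 times, a log2 change of 0.60 (0.72 relative to the median gene; limma adjusted p = 5.14e-07). It was 0.36 after quantile and 0.42 after cyclic loess normalization, called under both, and 10.9% of genes rose more as deposited. Against TTX the rise was 0.74 (limma adjusted p = 9.15e-08). The difference between TTX and untreated was small, -0.14 (limma adjusted p = 0.0228), and it lost the call in 3 of the 6 fits that left out 1 library (0.0751 without TTX library 1, 0.0619 without TTX library 3 and 0.0533 without untreated library 1) and against the second untreated library alone (-0.12, adjusted p = 0.117). Both normalizations enlarged that fall, to -0.32 and -0.25.

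Ntrk3 encodes TrkC, the receptor of neurotrophin-3. It was listed at 42.2, 38.0 and 48.1 RPKM untreated, 27, 26.8 and 27 with TTX and 22.0, 25.2 and 23.3 with Bic/4AP. All untreated libraries lay above all treated ones. Nearest to the treated ones was the second untreated library, the deepest of its group and the lowest of it in choroid plexus markers. The mean fell from 42.7 ± 5.05 untreated (n = 3) to 23.5 ± 1.60 with Bic/4AP (n = 3), a log2 change of -0.83 (limma adjusted p = 1.60e-06), and to 26.9 ± 0.111 with TTX (n = 3), a log2 change of -0.64 (adjusted p = 3.02e-05). Both falls kept their call after quantile normalization (-0.83 and -0.90) and cyclic loess (-0.90 and -0.80). Against the second untreated library alone the TTX difference was -0.48 (adjusted p = 0.00268, with the spread of the other groups). The untreated libraries are also those with the choroid plexus markers, and that mixture moves with Ntrk3. Bic/4AP and TTX differed by -0.19 (limma adjusted p = 0.0424), a call lost in 5 of 6 fits without 1 library (all but that without Bic/4AP library 2, adjusted p up to 0.148), after both normalizations (0.07 and -0.10) and without the filter on low values.

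In TTX libraries the receptors TrkB and TrkC had nearly equal transcript levels per length, with Ntrk2 at 1.08, 1.12 and 1.08 times Ntrk3. Untreated neurons had more Ntrk3 (ratios of 0.779, 0.847 and 0.686), and Bic/4AP neurons had more Ntrk2 (2.19, 1.95 and 2.26). The groups did not overlap (p = 0.1 for each pair in a two-sided exact permutation test). The log2 ratio was 1.47 higher with Bic/4AP than untreated and 0.96 higher than with TTX.

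Ngfr encodes p75NTR, which in the adult forebrain is best known from cholinergic neurons and elsewhere from Schwann cells. It was the lowest of the 5 genes in every group. It was listed at 7.11, 6.71 and 6.19 RPKM with TTX, 3.02, 3.71 and 2.40 untreated and 2.34, 2.30 and 3.04 with Bic/4AP. The TTX libraries stood apart, and the other groups overlapped. The TTX mean of 6.67 ± 0.460 (n = 3) was 2.19 times the untreated mean of 3.05 ± 0.653 (n = 3), a log2 change of 0.93 (limma adjusted p = 0.000306). It was 0.86 and 0.73 after quantile and cyclic loess normalization, called under both. Against the second untreated library alone it was 0.70 (adjusted p = 0.0172, with the spread of the other groups). Between 204 and 306 reads lay behind the TTX values and between 36 and 126 behind the others.

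With Bic/4AP against untreated, Ngfr gave -0.18 (adjusted p = 0.329) as deposited, 0.47 (adjusted p = 0.0151) after quantile normalization and 0.30 (adjusted p = 0.0592) after cyclic loess, so no direction can be stated. Against TTX it was lower with Bic/4AP, at -1.11 on the log2 scale (limma adjusted p = 4.19e-05), a fall that shrank to -0.40 and -0.43 under the 2 normalizations and was still called. Markers of the cells usually linked to p75NTR were low. The 5 cholinergic markers summed to 0.307 to 0.947 RPKM with TTX, 0.318 to 0.563 untreated and 1.49 to 1.94 with Bic/4AP. Of these, Lhx8 was at 0 in all 9 libraries, Chat was at 0 in all TTX and untreated libraries and at most 0.155 with Bic/4AP, and Slc18a3, the 1 marker tested, was higher with Bic/4AP (mean 1.42) than untreated (0.266). The 5 Schwann cell and neural crest markers summed to at most 1.71 RPKM in any library. Oligodendrocyte lineage markers moved with Ngfr and Ntf3: their 8 genes summed to 43.0 to 52.1 RPKM with TTX, 23.0 to 29.7 untreated and 22.2 to 28.7 with Bic/4AP, with Olig1 at a mean of 23.6 with TTX, 6.99 untreated and 14.1 with Bic/4AP and Sox10 at 0 in every Bic/4AP library. The 10 vascular, mural and fibroblast markers summed to 45.1 to 54.5 RPKM with TTX, 33.1 to 42.4 untreated and 40.5 to 54.8 with Bic/4AP, and of the 7 tested 4 were higher and 0 lower with TTX than untreated. The 9 astrocyte markers summed to 172 to 194 RPKM with TTX, 135 to 145 untreated and 202 to 233 with Bic/4AP. Against untreated, 6 of the 9 were higher and 1 lower with TTX, and 7 higher and 1 lower with Bic/4AP, so they moved with Ngfr and Ntf3 under TTX and with Ntrk2 under Bic/4AP. The part of these cell types in the changes of Ngfr, Ntf3 and Ntrk2 was not tested.

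**Figure D2:**
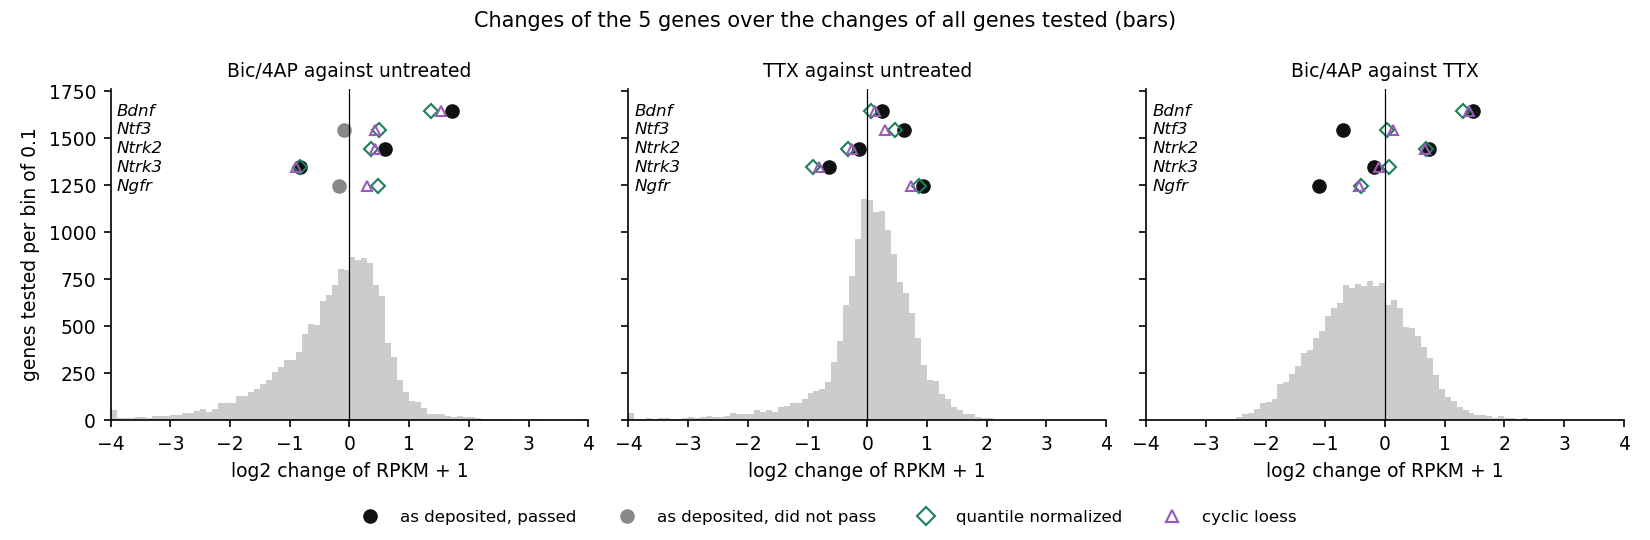
Log2 changes of RPKM + 1 of the 5 genes (x axis) in the 3 comparisons, over a histogram of all 14801 genes tested (grey bars, genes per bin of 0.1 on the y axis; values beyond the axis are in the outer bins). Filled circles are values as deposited, diamonds after quantile and triangles after cyclic loess normalization; Bdnf with Bic/4AP stands at the right end of the distribution, and Ntf3 changes side of 0 in both comparisons that involve Bic/4AP.

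The order of the 5 genes per length differed between treatments. Untreated it ran Ntrk3, Ntrk2, Bdnf, Ntf3 and Ngfr, with no overlap between neighbours. With Bic/4AP it ran Bdnf, Ntrk2, Ntrk3, Ntf3 and Ngfr, again without overlap. With TTX the highest were Ntrk2, Bdnf and Ntrk3 within 26.8 to 30.0 RPKM except for 1 Bdnf library at 25.6, and Bdnf and Ntrk3 overlapped.

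Ntf5 encodes neurotrophin-4, a further ligand of TrkB, and was low. Its RPKM was 2.93, 1.89 and 1.76 with Bic/4AP, 0.814, 0.817 and 1.42 untreated and 0.645, 0.602 and 0.526 with TTX. The 3 groups did not overlap. The mean was 2.19 ± 0.640 with Bic/4AP, 1.02 ± 0.349 untreated and 0.591 ± 0.0599 with TTX (n = 3 each), and the gene passed with Bic/4AP against untreated (log2 0.66, limma adjusted p = 0.00513) but not with TTX against untreated (-0.33, adjusted p = 0.12).

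The files held 83 further genes of neurotrophin signalling, in 7 roles, and 79 were tested. With Bic/4AP against untreated 30 were higher and 31 lower, or 77.2% called beside 72.1% of all genes, with a median log2 change of -0.01 beside -0.12. Of these, 21 were higher and 22 lower under all 3 scalings. With TTX against untreated 38 were higher and 11 lower (62.0% called; median 0.18 beside 0.13), a split of 33 and 25 after quantile and 28 and 26 after cyclic loess normalization, and of 22 and 8 against the second untreated library alone. With Bic/4AP against TTX 20 were higher and 42 lower (78.5% called; median -0.26 beside -0.33), but 28 and 33 after quantile normalization.

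Among 10 tested genes of ligand processing and release, 5 were higher and 3 lower with Bic/4AP. Pcsk1, a prohormone convertase of the regulated secretory pathway, rose from 16.6 ± 3.55 to 72.7 ± 7.49 RPKM (log2 2.08, limma adjusted p = 2.96e-08). Plat, tissue plasminogen activator, which starts the plasmin cascade that can cleave the BDNF precursor outside the cell, rose from 14.9 ± 0.533 to 34.1 ± 3.81 RPKM (1.14, adjusted p = 1.45e-07). Pcsk7, a convertase of the constitutive pathway, fell from 10.4 ± 1.22 to 2.14 ± 0.266 RPKM (log2 -1.87, adjusted p = 1.81e-07). These 3 kept direction and call under both normalizations. Furin, the trans-Golgi convertase of the precursors, gave -0.51 as deposited (adjusted p = 0.000269), and by -0.12 (adjusted p = 0.305) after quantile normalization. Cpe, carboxypeptidase E, was higher by 0.56 as deposited but -0.15 after cyclic loess, so its direction rests on the scaling.

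Among the 9 sorting and co-receptor genes, 3 were higher and 3 lower with Bic/4AP. Sorl1, a sorting receptor of the sortilin family, fell from 26.4 ± 2.61 to 7.84 ± 0.531 RPKM (log2 -1.63, limma adjusted p = 1.90e-08) and was also lower with TTX, at 16.4 ± 0.983 (-0.65, adjusted p = 5.56e-05). Lingo1, a co-receptor of p75NTR, was higher with Bic/4AP (0.60, adjusted p = 9.35e-06). Sort1, sortilin itself, was higher by 0.23 as deposited (adjusted p = 0.000945) and gave -0.02 after cyclic loess (adjusted p = 0.628). Sorcs2, a co-receptor of p75NTR for precursor BDNF, was higher with TTX, at 30.8 ± 0.178 against 16.8 ± 2.81 RPKM untreated (0.85, adjusted p = 1.71e-05).

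Trk adaptors were split, with 9 higher and 10 lower of 23 with Bic/4AP. Plcg1, the phospholipase C that docks to active Trk receptors, fell from 30.2 ± 3.41 to 10.1 ± 0.455 RPKM (log2 -1.49, limma adjusted p = 1.88e-08). Within the Shc adaptor family, Shc2 fell from 23.9 ± 1.71 to 9.41 ± 1.16 RPKM (-1.26, adjusted p = 1.26e-07) and Shc4 rose from 3.52 ± 1.04 to 9.06 ± 1.17 RPKM (1.17, adjusted p = 5.33e-05). Crkl, which links Trk receptors to Rap1 exchange factors, rose by 0.78 (adjusted p = 2.84e-06). Each of these 4 kept its call under both normalizations. With TTX, Shc3 was higher at 39.5 ± 1.42 against 21.3 ± 3.91 RPKM untreated (0.88, adjusted p = 2.13e-05).

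Of 10 adaptors of p75NTR, 4 were higher and 3 lower with Bic/4AP. Irak1, a kinase of the NF-kappaB branch, fell from 19.5 ± 2.40 to 7.43 ± 0.772 RPKM (log2 -1.28, limma adjusted p = 4.18e-07), and Bex1 was higher (0.56, adjusted p = 1.95e-06). With TTX, in which Ngfr itself was highest, Traf4 stood at 17.9 ± 0.666 against 6.30 ± 2.09 RPKM untreated (1.41, adjusted p = 3.66e-05). Among 9 genes of receptor turnover, 1 was higher and 6 lower with Bic/4AP. Ehd4 (pincher), which drives the uptake of activated Trk receptors, was the one that rose (0.80, adjusted p = 0.000126). Hap1, a transport adaptor that binds the BDNF precursor, fell from 47.0 ± 6.51 to 20 ± 1.64 RPKM (-1.18, adjusted p = 3.05e-07), and Gga3, an adaptor of sorting between the Golgi and endosomes, fell by 0.80 on the log2 scale (adjusted p = 1.83e-07).

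Of 16 regulators of Bdnf transcription, 6 were higher and 6 lower with Bic/4AP. Npas4, an activity-induced factor that binds Bdnf promoters, rose from 8.50 ± 1.5 to 124 ± 8.94 RPKM (log2 3.73, limma adjusted p = 1.46e-09). Mef2c rose from 49.9 ± 1.81 to 89.7 ± 2.0 RPKM (0.84, adjusted p = 7.93e-08). Usf1, an E-box factor, fell from 15.7 ± 1.43 to 6.20 ± 0.335 RPKM (-1.21, adjusted p = 1.09e-07), and Crtc1, a coactivator of CREB, fell from 26.5 ± 0.562 to 14.0 ± 1.74 (-0.89, adjusted p = 7.05e-07). With TTX the last 2 were higher than untreated (0.82 and 0.44; adjusted p = 7.32e-06 and 0.000327). These calls held under both normalizations.

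**Figure D3:**
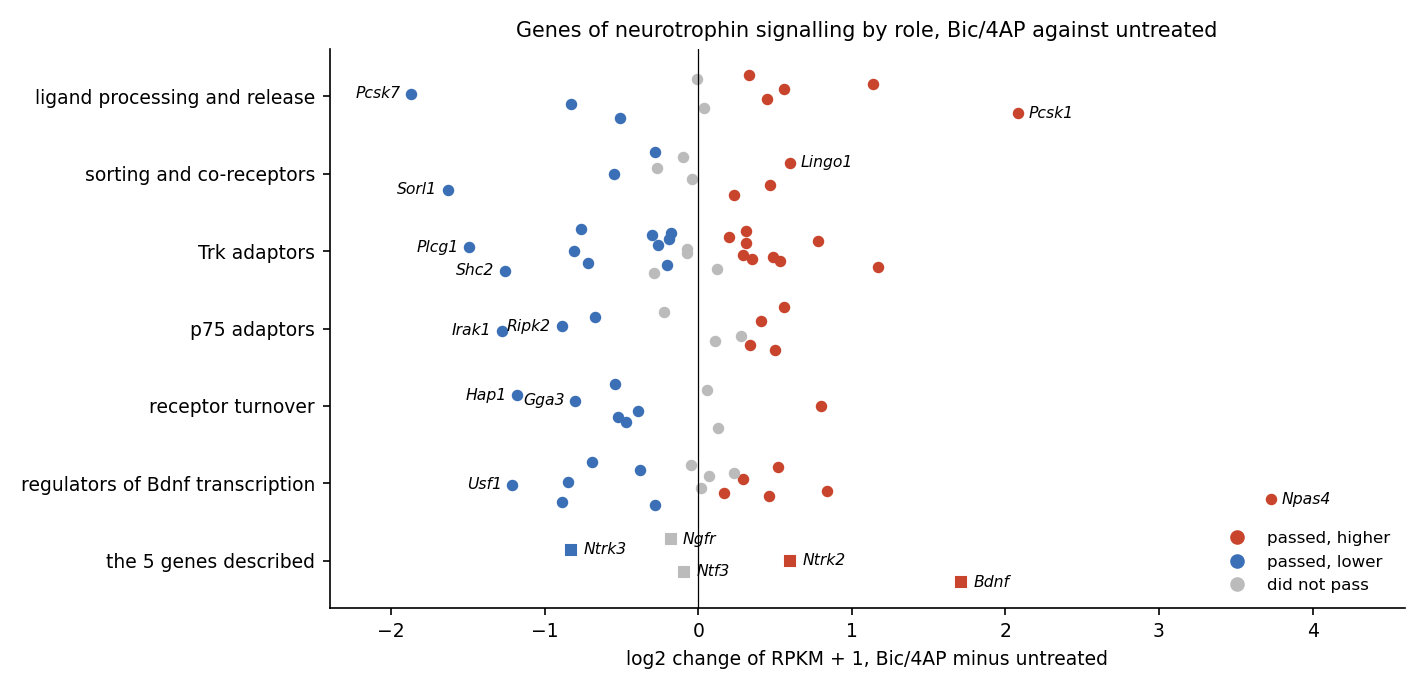
Log2 change of RPKM + 1 with Bic/4AP against untreated (x axis) for 77 tested genes of neurotrophin signalling in 6 roles and for the 5 genes described (squares). Red marks genes called higher and blue genes called lower at an adjusted p of 0.05, and the 2 largest changes of each role are named; Npas4, Pcsk1 and Bdnf stand farthest to the right and Pcsk7 and Sorl1 farthest to the left.

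The genes most like Bdnf over the 9 libraries, by Pearson correlation of log2(RPKM + 1) among 11996 tested genes with a mean of 5 RPKM or more in a group, were Nap1l2 (0.999), Fam107b and Fos (0.998 each) and Nr4a2 and Ccrn4l (0.997 each). These 9 libraries fall into 3 groups, so a high value mainly shows a like order of group means, and libraries share depth. Fos and Nr4a2 are immediate early genes; Fos rose from 9.76 ± 2.50 untreated to 185 ± 8.87 RPKM with Bic/4AP (n = 3 each). For Ntrk2 the most like genes were Stam and Rsu1 (0.998 each), for Ntrk3 Bai1 (0.996) and Magi2 (0.993), for Ntf3 Efcab2 (0.995) and Ppp1r3d (0.991) and for Ngfr 1700003E16Rik (0.995) and Emc8 (0.994).

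Neighbouring genes were read to see whether a change was shared along the chromosome. The nearest protein-coding gene before Bdnf, Kif18a, a mitotic kinesin 333 kb away, was at 25.3 ± 1.99 RPKM with Bic/4AP against 6.92 ± 1.93 untreated (log2 1.76, limma adjusted p = 5.35e-07), a change of the size of that of Bdnf. The nearest on the other side, Lin7c, a synaptic scaffold 164 kb away, changed by 0.26 (adjusted p = 0.00454). Beside Ngfr, Nxph3, 54.3 kb away, had 7.79 ± 1.03 RPKM with TTX against 2.59 ± 1.07 untreated (1.32, adjusted p = 0.000256), the same direction as Ngfr, and Phb on the other side rose too (0.69, adjusted p = 7.03e-06). On the sides of Ntf3 and Ntrk2, Ano2 (-0.82, adjusted p = 0.00172) and Slc28a3 (-0.72, adjusted p = 0.000561), both under 2 RPKM, were lower with Bic/4AP than untreated. Agtpbp1, after Ntrk2, was higher by 0.18 (adjusted p = 0.0221), Kcna5 was not called (0.11, adjusted p = 0.624), and Mrpl46 beside Ntrk3 was not called in that comparison (-0.26, adjusted p = 0.194). With TTX against untreated, Mrpl46 (1.31, limma adjusted p = 4.89e-05), Ano2 (-0.54, 0.0237) and Lin7c (-0.39, 0.000342) went against Ntrk3, Ntf3 and Bdnf. Slc28a3 (-1.21, adjusted p = 1.95e-05) fell as Ntrk2 did. Kif18a (0.12), Kcna5 (0.43) and Agtpbp1 (-0.13) were not called with TTX. The lncRNA E430016F16Rik, whose lower coordinate lies 32 bases past the upper end of Ntrk3, was below 1 RPKM in every group mean. The sources used here do not say whether counting used the strand.

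H3K27ac marks active promoters and enhancers. The titles give a first pair of peak lists (4846 peaks untreated, 7721 with Bic/4AP) and a pair named as repeats (49701 and 55035), and lists were compared only within a pair. The pairs differ far more in the number of peaks than the treatments do. Scores are the authors' own, at least 50 in every list, and 773 and 946 peaks of the repeat lists share the value 3100, so they do not rank the strongest peaks. Each list is 1 sample, so peaks are described without a test. At Bdnf, 5 of the 7 starts lay in a peak of both repeat lists, beside 20.03% of all RefSeq promoter windows of 300 bases in the untreated list and 25.55% in the Bic/4AP list. These were the first 5 starts, in the clusters 0 to 2.33 kb and 17.74 to 19.71 kb from the first start. In the first pair none of the 7 lay in an untreated peak and 3 lay in a Bic/4AP peak, beside 3.71% and 11.52% of all windows.

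Around the first Bdnf start the untreated peaks were more broken up than the Bic/4AP peaks. In the repeat lists the untreated sample had a peak from -5.13 to -2.48 kb (score 892.19), a weak one from -1.96 to -1.40 kb (72.45) and one from -0.11 to 5.35 kb (3100), where the Bic/4AP sample had a single peak from -5.14 to 6.10 kb (3100). Just before it lay a separate peak in both, from -6.01 to -5.33 kb untreated (67.20) and from -6.34 to -5.26 kb with Bic/4AP (342.57). In the first pair there were likewise 2 untreated peaks between 0.99 and 3.32 kb (scores 85.41 and 56.13) and 1 Bic/4AP peak from -0.07 to 3.40 kb (137.89). Peak widths in these lists move with how much was called: the median peak of the first pair was 378 bases wide untreated and 785 with Bic/4AP, and 922 and 998 in the repeat lists.

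The cluster that holds promoter IV showed less difference in the repeat lists. It carried a peak from 16.72 to 20.14 kb untreated (score 1225.61) and from 16.62 to 20.14 kb with Bic/4AP (1067.88). A further untreated peak from 20.25 to 22.76 kb (562.49) had no partner with Bic/4AP. In the first pair a peak from 18.81 to 20.10 kb (117.15) was listed with Bic/4AP alone, as were 66.7% of all peaks of that list, while both untreated peaks had a partner (40.4% of that whole list had none). In all, 17 kb at Bdnf were covered in the untreated repeat list and 16.7 kb in the Bic/4AP list, a ratio of 0.982, lower than at 67.5% of 1906 genes with at least 20 kb over both lists (median ratio 1.32). Only 1 H3K4me1 peak, of 120 bases with a score of 52.71, was listed at Bdnf in either list.

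**Figure D4:**
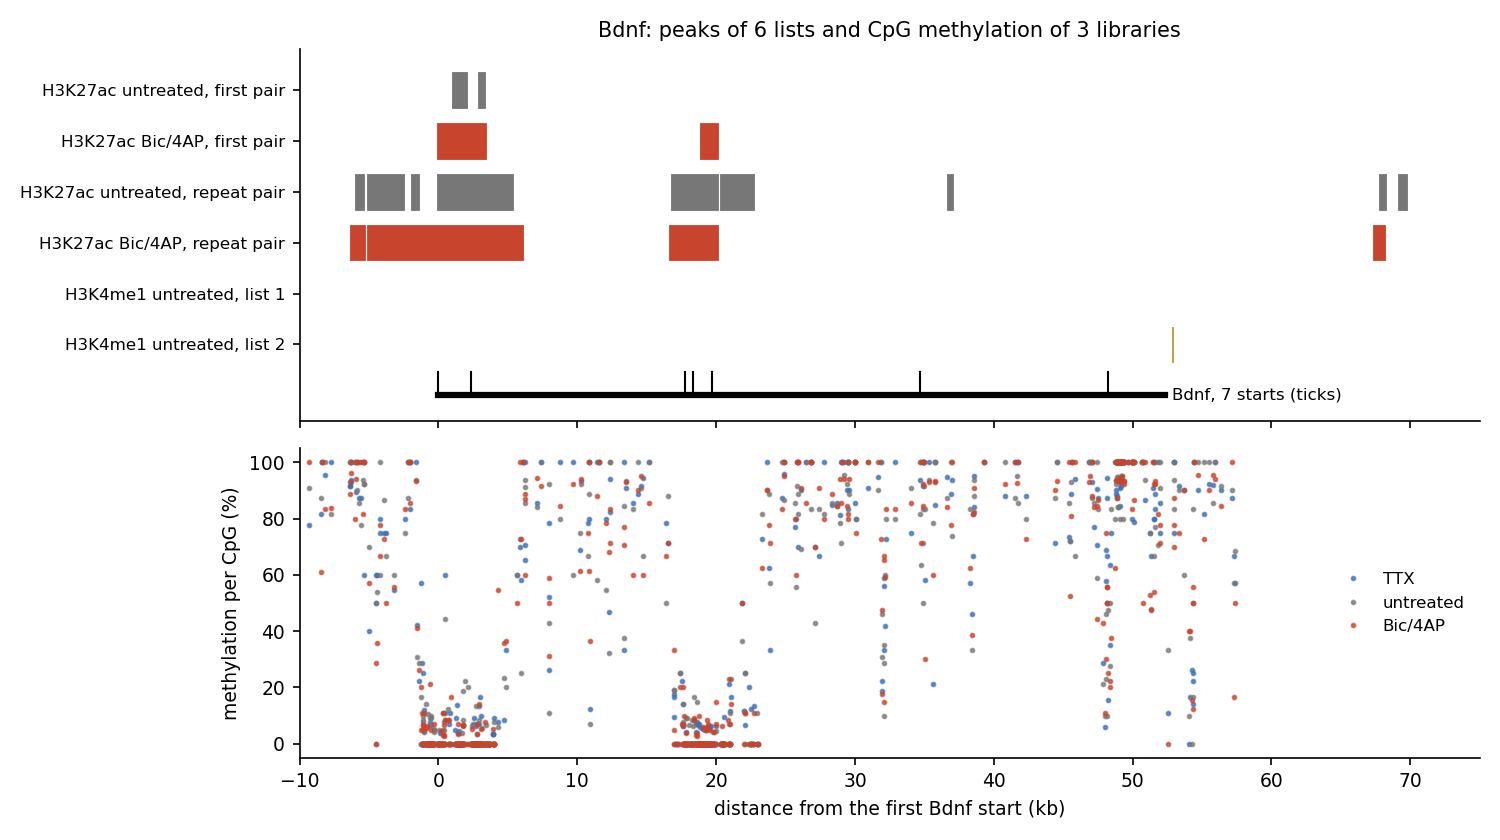
Upper panel: peaks of the 6 lists along the Bdnf locus (x axis, kb from the first start; grey untreated H3K27ac, red Bic/4AP H3K27ac, ochre untreated H3K4me1), with the gene as a black line and its 7 starts as ticks. Lower panel: methylation (%) of each CpG listed in all 3 libraries; the CpGs plotted reach a few kb past the gene, and those near 0% gather around 0 to 4 kb and 17 to 23 kb, where 5 of the 7 starts and the H3K27ac peaks lie.

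Ntrk2 and Ntrk3 carried most of the peaks. At Ntrk2 the repeat lists held 29 untreated and 44 Bic/4AP peaks, covering 44.1 and 68.0 kb. Of the Bic/4AP peaks there, 28 (63.6%) overlapped no untreated peak, beside 51.3% over the whole list, and of the untreated peaks 10 (34.5%) overlapped no Bic/4AP peak, beside 43.7%. The covered length with Bic/4AP was 1.54 times the untreated one, more than at the median of the 1906 genes but less than at 41.1% of them. The Ntrk2 start lay in a peak of all 4 H3K27ac lists. A peak from 264.82 to 268.76 kb after the lower end of the gene (score 864.13) was listed with Bic/4AP alone, and a peak at 283.46 to 287.13 kb (894.96) untreated faced one at 283.38 to 290.10 kb (2126.65) with Bic/4AP. Past the end of the gene, a peak from 336.52 to 342.73 kb untreated reached 346.76 kb with Bic/4AP, and the first pair gave 339.45 to 340.57 kb (135.94) and 337.06 to 342.34 kb (145.97) at this place. H3K4me1, a mark of enhancers, had 62 and 52 peaks at Ntrk2 in the untreated lists, of which 64.5% and 53.8% were in 1 list alone (77.9% and 75.2% over the whole lists).

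At Ntrk3, whose transcript was lower with Bic/4AP, the covered length was not lower. The repeat lists held 52 untreated and 60 Bic/4AP peaks over 76.5 and 95.8 kb, a ratio of 1.25 beside the median of 1.32. Of these, 14 (26.9%) were listed untreated alone and 26 (43.3%) with Bic/4AP alone, both below the shares over the whole lists (43.7% and 51.3%). The strongest lay from 79.85 to 91.81 kb before the upper end (3100 in both lists) and from 1.15 to 6.56 kb (2923.47 untreated, 3100 with Bic/4AP). The first pair held 1 peak in each list, from 82.72 to 83.39 kb untreated (55.55) and from 2.69 to 4.34 kb with Bic/4AP (71.63). Ntf3 had 3 untreated peaks in the repeat list (highest score 502.80, from 3.54 to 5.83 kb inside the gene) and none with Bic/4AP, beside 43.7% of the whole untreated list without a partner, and no peak in either list of the first pair. Ngfr had no peak in any of the 6 lists within 20 kb.

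**Figure D5:**
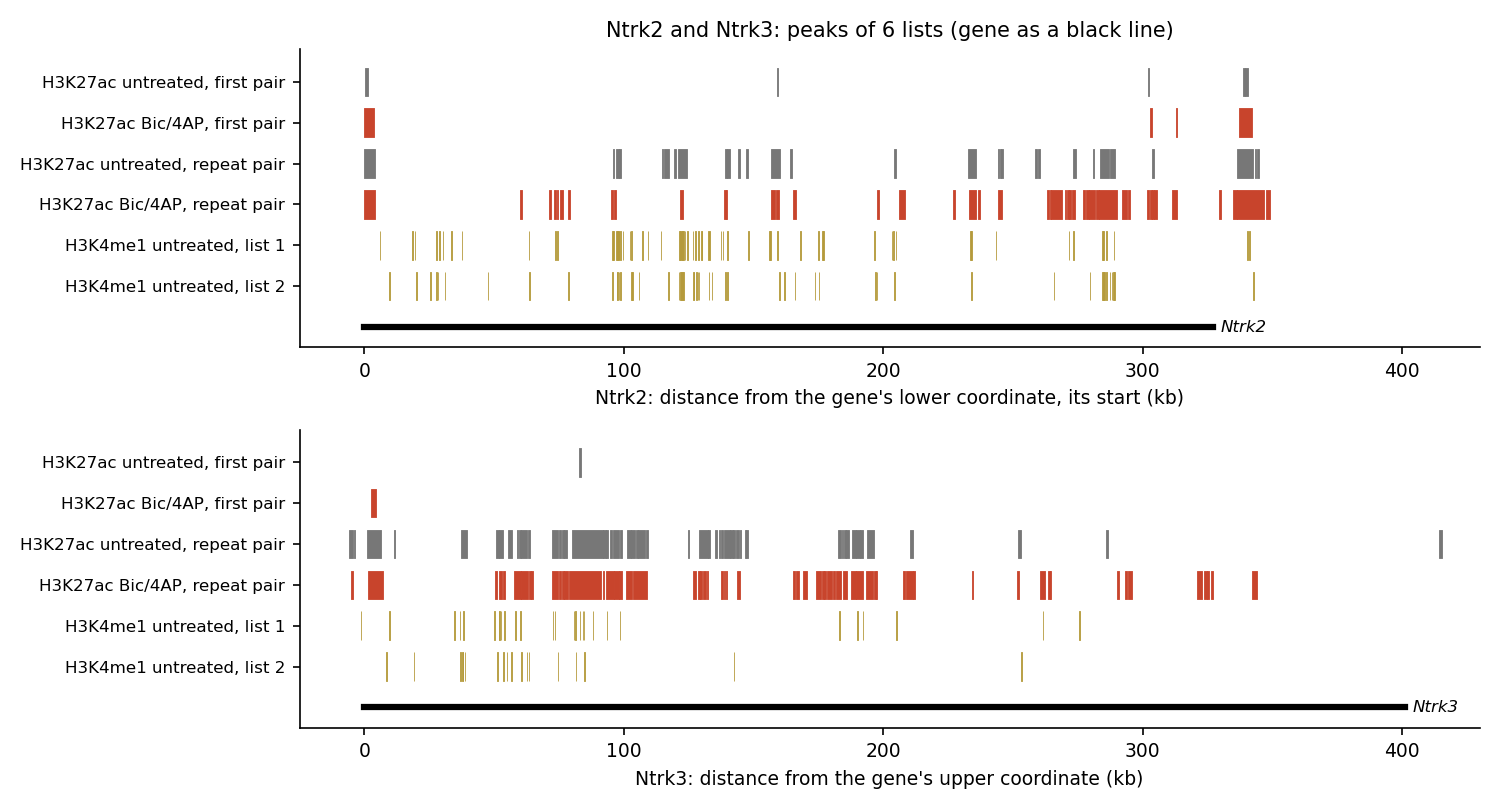
Peaks of the 6 lists at Ntrk2 (x axis, kb from its start) and Ntrk3 (kb from its upper coordinate), each gene as a black line; grey is untreated H3K27ac, red Bic/4AP H3K27ac and ochre untreated H3K4me1. Repeat lists hold 29 and 44 H3K27ac peaks at Ntrk2 and 52 and 60 at Ntrk3, untreated and Bic/4AP.

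CpG methylation is given as the mean fraction over the CpGs listed in all 3 libraries, which come from 1 library per treatment with unknown depth, so no difference was tested. Over 15007037 shared CpGs the means were 73.6% with Bic/4AP and 73.7% with TTX and untreated. The 5 acetylated Bdnf starts had low methylation: the window of the first start had 0.833% untreated and 0% in both treated libraries (6 CpGs), and that of promoter IV had 2.91% untreated, 4.16% with TTX and 3.65% with Bic/4AP (12 CpGs). The CpG inside the core element of promoter IV, 35 bases before the start, was at 0% in all 3 libraries. Single CpGs of that window had no common order. The CpG 109 bases before the start read 20% with Bic/4AP, 14.3% with TTX and 6.67% untreated. The CpG 87 bases before it read 14.3% untreated and 0% in both treated libraries. The CpG 205 bases before it read 22.2% with TTX, 7.14% with Bic/4AP and 0% untreated. The windows of the fourth and the fifth start were at most at 1.46% in any library. The 2 starts outside the peaks were methylated, with 72.7% untreated at the sixth (2 CpGs) and 33.8% at the seventh (7 CpGs).

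The seventh Bdnf start, printed above, had the widest gap between libraries among the starts with at least 3 shared CpGs. It had 33.8% untreated, 43.2% with Bic/4AP and 56.6% with TTX. The gap between TTX and untreated of 22.82 percentage points was exceeded at 0.424% of 23133 promoters with at least 3 shared CpGs, and that between Bic/4AP and untreated of 9.37 points at 7.74%. The median of those promoters was only 2.31% untreated, and promoters of like methylation and CpG number were not set apart. These shares therefore do not say how unusual such gaps are at a partly methylated start. Of the 7 CpGs at the seventh start, 4 were highest with TTX, led by the CpG 72 bases before the start (50% untreated, 55.6% with Bic/4AP, 94.4% with TTX). The CpG 5 bases after the start went the other way (47.4%, 25.0% and 15.4%). At the other promoters with at least 3 shared CpGs, Bic/4AP and untreated differed by 0.06 to 5.0 points, beside a median gap of 1.15 over all promoters.

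The starts of the other genes were low in methylation whether or not they were acetylated. The Ntrk2 window had 0.602% untreated, 0.272% with TTX and 0.543% with Bic/4AP (23 CpGs). Ngfr, without a peak in any list, had 2.36%, 1.42% and 3.69% (19 CpGs), and the outer Ntf3 start had 7.04%, 5.75% and 7.21% (7 CpGs). The median promoter had 2.31% untreated. At the upper end of Ntrk3 the 12 CpGs within 1 kb had 74.4% untreated, while its peak from 1.15 to 6.56 kb inside the gene had 8.45% over 164 CpGs.

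Methylation of gene bodies and peaks differed more between places than between libraries. The Bdnf gene had 32.5% untreated (lower than that of all but 9.45% of 18720 genes), 33.7% with TTX and 32.7% with Bic/4AP, and Ngfr had 36.9%, 36.0% and 35.4%. Ntrk2 and Ntrk3 had 74.9% and 75.4% untreated, and Ntf3 had 65.6%. At Ntrk2, peaks of the untreated repeat list that overlapped a Bic/4AP peak held 36.7% untreated and 36.9% with Bic/4AP (538 CpGs), while peaks listed with Bic/4AP alone held 74.2% and 75.1% (307 CpGs). At Ntrk3 the same classes held 52.9% and 52.0% (519 CpGs), and 84.5% and 84.9% (155 CpGs). The overlapping classes include the peak over the Ntrk2 start (7.24% untreated, 185 CpGs) and that from 1.15 to 6.56 kb in Ntrk3 (8.45%, 164 CpGs). These low peaks were not set apart, so the classes differ in kind of site too. Peaks listed untreated alone held 60.6% untreated at Ntrk2 (103 CpGs) and 59.2% at Ntrk3 (87 CpGs). The peaks listed with Bic/4AP alone were thus about as methylated as the gene around them at Ntrk2, or more so at Ntrk3, in the excited library too. Methylation came from C57BL/6 neurons and acetylation from ICR neurons.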

How the data were processed

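RNA-seq values are RPKM (reads per kilobase of gene, scaled to the library) per gene as the authors deposited them. Tools named, per the submitters' processing notes, are TopHat, Bowtie2 2.2.4, SAMtools 0.1.19 and MACS 1.4.1, with build mm10; strand use and duplicate removal are not given in the sources used here. Peaks carry a score deposited by the authors whose scale is not named, 1 list per sample. CpG methylation is a fraction deposited per site without coverage, printed as percent. The input sample was not used.

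The 5 genes, the pathway and marker lists and the tests were chosen with earlier results of these data known. The 14801 genes with 3 or more libraries at or above 1 RPKM were tested on log2(RPKM + 1), pseudocount 1, with limma 3.58.1 (trend; R 4.3.3) over all 9 libraries, with Benjamini-Hochberg adjustment. Fold changes on this scale understate those of low genes. The test was checked on simulated data with 200 changed genes and no shift in scale between groups. The real comparisons called far more genes, so the check does not speak for that setting. Depth came from the steps of RPKM values. Named pathway genes are among the 3 smallest p-values per role and direction; likeness and neighbours followed fixed rules. Some genes of the pathway list enter its counts but are not reported here by name. Alternatives were other pseudocounts, filters, scalings, groups in the fit, a replicate block, left-out libraries, windows and scores. The comparison of TTX with the second untreated library alone was chosen after seeing the data. Peaks within 20 kb of a gene were counted, and 1 shared base made an overlap. Promoter windows ran from 250 bases before to 50 after a start (RefSeq, GRCm38.p6). Python 3.11.15, pandas 2.3.3, numpy 2.4.6 and matplotlib 3.10.9 were used.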

Additional observations from a re-analysis of the deposited data

How the results depend on the processing

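Of the log2 changes of the 5 genes under alternatives other than left-out libraries, 97 kept direction and side of the threshold, 6 lost the call and 7 reversed. With 1 library left out, 80 kept both, 8 lost the call and 2 reversed. Ntf3 in Bic/4AP against untreated was 0.50 after quantile and 0.42 after cyclic loess normalization, 0.01 without Bic/4AP library 2 and 0.03 without untreated library 2, against -0.09. Ngfr there was 0.47 and 0.30, against -0.18. In Bic/4AP against TTX, Ntf3 was 0.04 and 0.13, against -0.71, and Ntrk3 was 0.07 after quantile normalization, against -0.19. Of the 5 genes, 5 (4 higher, 1 lower) were called in Bic/4AP against untreated after quantile normalization, and 3 (2 higher, 1 lower) in Bic/4AP against TTX after either normalization. Against the second untreated library alone, TTX gave 3 called genes and 30 pathway genes, against 5 and 49; that fit has 1 untreated library, assumed to vary like the other groups, whose spread it uses. The cause of the other changes was not tested. With 1 library left out, called genes ranged from 3 to 3, 4 to 5 and 4 to 5, and pathway genes from 57 to 64, 43 to 54 and 58 to 61.

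With the replicate number as a block, 3, 5 and 5 genes and 60, 49 and 61 pathway genes were called, and no call of the 5 genes changed. Same-numbered libraries correlated at -0.17 to 0.04 in their deviations from group means, so no effect shared by number was seen. These values cannot tell whether libraries of the same number were prepared together.

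At a score of 100 or more, peaks at the 5 loci fell to 2 and 4 in the first pair of H3K27ac lists (8 and 7 in all), 60 and 66 in the repeat pair (93 and 108) and 17 and 15 for H3K4me1 (94 and 72). Methylation within 1 kb of the outer gene start, averaged over all genes but Ntrk3, was 8.57% with Bic/4AP, 8.40% with TTX and 9.13% untreated. It was 5.92%, 5.56% and 6.58% within 500 bases, 11.4%, 11% and 11.2% within 2 kb, and 10.7%, 10.5% and 9.28% over all CpGs each library lists, where untreated turned from highest to lowest. Low read numbers limit Ngfr and Ntf3, and the single libraries and unknown coverage limit methylation.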
